A study of Canis lupus familiaris with 5 samples.

Results

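The genes described here encode proteins that build and supply mitochondria: the mitochondrial ribosome (symbols starting with MRPL or MRPS), the translation and nucleoid factors TUFM and TFAM, the protein import machinery (TIMM and TOMM), the CHCHD proteins, the solute carriers of the SLC25A family, the porins (VDAC) and the prohibitin PHB2. They were chosen by symbol, from probe sets that the platform annotation pairs with exactly 1 gene, with earlier results of these data known. SLC25A20 and the adenine nucleotide translocases SLC25A4 to SLC25A6 were left out. The choice gave 52 genes on 95 probe sets, of 2416 genes on 3724 probe sets. TSFM and PHB matched no such probe set. Prohibitin is annotated under its other symbol PHB1, which the choice by symbol did not include, and its log2 fold change, failing minus control, was 0.41 ± 0.35 (SE) with overlapping groups. All 52 symbols also belong to a gene of the dog in RefSeq (assembly UU_Cfam_GSD_1.0), while the platform annotation identifies its probe sets by human genes. How well each probe set matches the dog transcript was not tested, and this limit holds for every value below.

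Transcripts were measured in canine myocardium on 5 oligonucleotide arrays, 2 labelled control (1a and 2a) and 3 labelled failing (1a, 1b and 2a) in a study of congestive heart failure. For control 2a and the 3 failing arrays, the RNA of 3 dogs was combined before it was labelled. What was hybridised to control 1a is not described. Breed, sex, age, the part of the heart and the way heart failure arose are not given in the sources used here, and no treatment or transgene is named. The labels do not say whether failing 1a and 1b come from separate pools, so every p-value here reflects array-to-array spread, part of which may be technical. In whole tissue, fewer cells of a type and less RNA per cell cannot be told apart.

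Mitochondria make a few of their proteins on their own ribosome, whose RNA comes from mitochondrial DNA and whose proteins come from nuclear genes. Nearly all other mitochondrial proteins are made in the cytosol, pass the outer membrane through the TOM complex and are handed to the TIM complexes or to small chaperones of the intermembrane space. Carriers of the SLC25 family and the porins move metabolites across the inner and the outer membrane, and heart muscle, which lives on oxidative metabolism, is rich in all of them.

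Array values were linear intensities as deposited, and many were below 0, where no logarithm exists. Of the 95 member probe sets, 22 (23.2%) were below 0 on every array, against 17.9% of all 4601 probe sets that are not array controls. The share below 0 was 34.7% to 37.9% on the control arrays and on failing 1a and 1b, and 47.4% on failing 2a, where it was 40.1% for all probe sets. Values under 20 were set to 20 before log2 was taken, and a gene was tested when its best probe set had a mean log2 intensity of at least 7.13 (an intensity of 140.1, the median of all probe sets). That filter passed 29 of the 52 genes and 42 of the 95 probe sets.

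No member differed between failing and control myocardium after adjustment over all 1449 tested genes (limma, Benjamini-Hochberg). In the whole set 0.0690% of genes, 1 gene, passed. CHCHD10, a protein of the intermembrane space, had the smallest p of all members and was 0.489-fold of control at its main probe set. At an unadjusted p under 0.05 it was the 1 member that was lower (3.45% of 29) and 0 were higher, while 3.59% of all tested genes were lower and 6.90% higher at that level. Groups that did not overlap were about as common among members as among all genes. Of the 29 members 4 (13.8%) lay below both controls on every failing array, against 11.8% of all tested genes, and 5 (17.2%) lay above, against 19.5%.

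The 4 below were CHCHD10, MRPL33, TOMM5 and MRPS18C. The 5 above were SLC25A34, VDAC3, TIMM44, TIMM50 and SLC25A51. These counts depended on single arrays. The count below was 8 without control 1a and 8 without failing 2a, and the count above was 11 without control 2a, 8 without failing 1a and 8 without failing 2a. With each of these arrays left out, the shares among members (26.7%, 26.7%, 37.9%, 27.6% and 26.7%) stood beside 19.5%, 20.7%, 33.4%, 26.5% and 28.6% of all tested genes, and the comparison was not tested.

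The members had a median log2 fold change of 0.03, with 14 below 0 and 15 above, and the median over all tested genes was 0.15. Relative to that median the members were lower by 0.12, and 18 of 29 lay under it. The median of all genes moved to −0.00087 after quantile normalization and to −0.05 after scaling to the 75th percentile, and that of the members to −0.29 and −0.17. With a floor of 100, and with the filter applied to the mean of both group means, it was −0.017, and without control 1a or control 2a it was −0.15 or −0.070. The sign of the members' own median thus turned with several settings, while the members' median minus that of all genes stayed below 0 in each of the 15 alternatives (−0.285 to −0.0415). Those alternatives reuse the same arrays and are not independent. Relative to the control mean, the median of all genes was 0.11, 0.13 and 0.42 on failing 1a, 1b and 2a. For the members it was −0.03, −0.00064 and 0.08. Without failing 2a the members' median minus that of all genes was −0.0704.

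**Figure D1:**
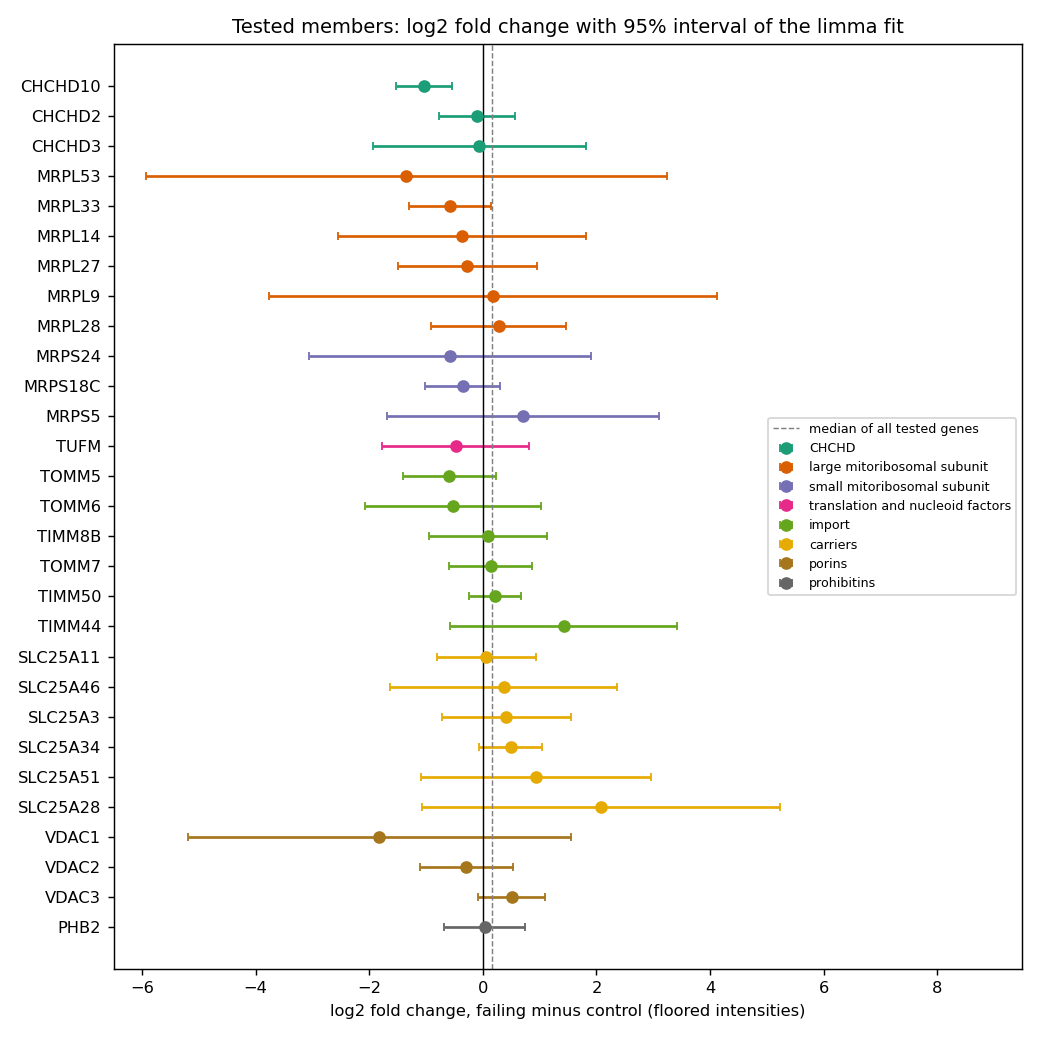
Log2 fold change, failing minus control, of the 29 tested members, grouped and coloured by role, with the 95% interval of the limma fit as bars and the median of all tested genes (0.15) as a dashed line. The interval of CHCHD10 lies wholly below 0, and the intervals of the other 28 members include 0.

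Precision was low. The 95% interval of a member's log2 fold change had a median half-width of 1.19, from 0.45 for TIMM50 to 4.59 for MRPL53. For 5 members the whole interval lay between −1 and 1, a change of less than 2-fold in either direction, namely CHCHD2, TIMM50, TOMM7, SLC25A11 and PHB2. For the others, failure to pass the threshold leaves changes of 2-fold or more within the interval. In 5 members the 2 control arrays alone differed by more than 2-fold.

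Among the CHCHD genes, CHCHD10 was lower on every failing array at both of its probe sets. CHCHD10 sits in the intermembrane space near the cristae junctions and is mutated in inherited motor neuron and muscle disease. At the main probe set (HSPD517_g_at) its intensity was 70015 on control 1a and 67524 on control 2a, and 28117, 40549 and 33301 on failing 1a, 1b and 2a. The lowest control value was well above the highest failing value. The mean went from 68770 ± 1761 (SD, n = 2) to 33989 ± 6244 (n = 3), a log2 fold change of −1.03 ± 0.20 (SE, 95% interval −1.53 to −0.54, unadjusted p = 0.00258, adjusted p = 0.267 by limma).

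The second probe set (HSPD517_at), annotated with the same accession, read 47151 and 49465 on control 1a and 2a, as against 31945, 37076 and 30783 in the failing samples. The groups again did not overlap, and the difference was smaller, −0.54 ± 0.15 on the log2 scale or 0.687-fold (unadjusted p = 0.0141, adjusted p = 0.350 by limma when each probe set was tested by itself). The probe sets share a target and are not independent evidence of each other. After quantile normalization the log2 fold change of the main probe set was −0.64, and over the 15 alternatives it ran from −1.24 to −0.64, with adjusted p between 0.142 and 0.648 and unadjusted p under 0.05 in all 15.

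**Figure D2:**
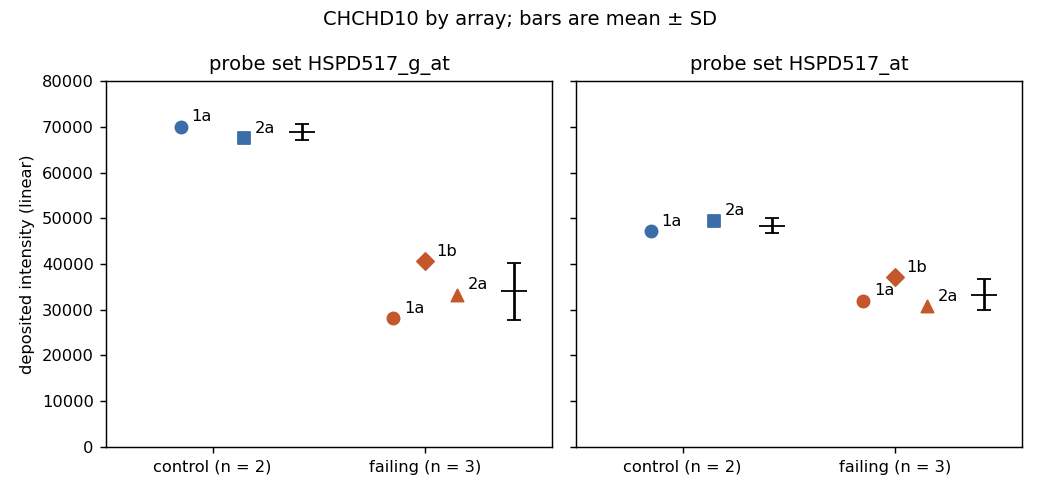
Deposited linear intensity of CHCHD10 on each array, for its 2 probe sets in separate panels, with control arrays in blue, failing arrays in orange and bars for mean ± SD (n = 2 and n = 3). At HSPD517_g_at the control arrays read 67524 and 70015 and the failing arrays 28117 to 40549, and at HSPD517_at the groups also do not overlap.

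Other measures also differed between these arrays. Of the 35 tested genes with a mean log2 intensity of at least 14, to which CHCHD10 belongs, 18 (51.4%) lay below both controls on every failing array, 11 were lower and 1 higher at an unadjusted p under 0.05, and the median log2 fold change was −0.32. CHCHD10 had the fifth lowest log2 fold change of them (rank 5). Of 16 cardiomyocyte markers 11 were on the array, and their summed intensity was 172570 to 179235 in control and 135327 to 150306 in failing myocardium. Values below 0 were left out of that sum. Of the 10 tested, 4 lay below both controls (MYH6, MYL3, MB and TTN) and 1 above (RYR2), with a median log2 fold change of −0.52. TNNC1 overlapped, at 33694 and 34288 in control against 33092, 33588 and 37213 on failing 1a, 1b and 2a. CKM was above both controls on failing 1a and 1b and below them on failing 2a. CKMT2 was below 0 on failing 2a, and MYH7 on failing 2a and both control arrays. The 3′ to 5′ ratio of the GAPDH array control was 2.24 ± 0.13 (SD, n = 2) in control and 1.39 ± 0.06 (n = 3) in failing myocardium (two-sided exact permutation p = 0.2, the smallest that 2 against 3 arrays allow). The same ratio of the actin control was higher in failing myocardium, at 0.099 ± 0.013 against 0.162 ± 0.065, with overlapping groups (exact permutation p = 0.6). The 9 bacterial control probe sets had a mean log2 intensity of 14.17 and 14.25 on the control arrays and of 12.49, 13.80 and 13.35 on failing 1a, 1b and 2a, so their groups did not overlap either (14.21 ± 0.06 and 13.21 ± 0.67, exact permutation p = 0.2). The part of these in the CHCHD10 difference was not tested.

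CHCHD2, the closest paralogue of CHCHD10, did not pass the threshold, and whether it differed from CHCHD10 was not tested. Its intensity was 5598 and 4221 in control, against 4863, 5359 and 3606 on failing 1a, 1b and 2a, so that the groups overlapped (log2 fold change −0.10 ± 0.27, 95% interval −0.77 to 0.57). The second CHCHD2 probe set also overlapped, with −0.03. CHCHD3, a subunit of the MICOS complex that shapes the cristae, was at 550.1 and 411.5 on the control arrays, 317.1 and 301.8 on failing 1a and 1b, and 984.5 on failing 2a. Failing 2a was thus above and the other failing arrays below both controls, and the second CHCHD3 probe set, at 111.0 and 365.3 against 261.7, 583.1 and 938.6, gave 1.38 ± 0.94 where the first gave −0.06 ± 0.75.

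For the large subunit of the mitochondrial ribosome, 6 of 13 genes could be tested, 4 with a log2 fold change below 0 and 2 above (median −0.32). MRPL33, a small protein of that subunit, read 7470 and 7819 on control 1a and 2a, as against 5979, 6184 and 3649 in the failing samples. All failing values lay under both controls, with failing 2a lowest (log2 fold change −0.58 ± 0.29, 0.671-fold, adjusted p = 0.549, limma). Without failing 2a the difference was −0.33. A second, dim MRPL33 probe set below the filter read 50.9 and 244.3 against 78.6, 55.0 and 160.2, with overlapping groups.

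MRPL28 was at 2223 and 1177 in control, against 3082, 1444 and 1699 on failing 1a, 1b and 2a, a log2 fold change of 0.28 ± 0.48. On the log2 scale its control values spanned almost as wide a range as the failing ones, and the direction turned without control 2a and without failing 1a (−0.18 and −0.046). MRPL27 went from 618.7 ± 80.9 to 514.4 ± 79.4 (−0.27 ± 0.49), with 1.14 ± 1.55 at its second probe set. MRPL14, close to the subunit interface in bacterial ribosomes, had control values of 248.6 and 1083, between which all 3 failing values fell.

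In MRPL53 a single array decided the value, while in MRPL9 failing 1a and failing 2a lay on opposite sides of both controls. MRPL53 read 492.8 and 807.7 on the control arrays, 914.1 and 827.9 on failing 1a and 1b and −415.4 on failing 2a, so its log2 fold change of −1.35 ± 1.84 is a value on floored data. The other failing values both lay above the controls. MRPL9 read 111.1 and 225.4 in control, and 40.2, 158.2 and 892.1 in failing myocardium, with failing 2a highest.

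The small subunit had 3 tested genes of 10. MRPS18C, a relative of the bacterial ribosomal protein S18, was at 3241 and 3341 on control 1a and 2a, as against 3218, 2403 and 2195 in the failing samples. Failing 1a was only just under control, and the log2 fold change was −0.36 ± 0.26 (adjusted p = 0.705, limma). MRPS5 was lowest on control 1a and failing 1a (690.0 and 778.3) and higher on control 2a, failing 1b and failing 2a (2754, 3107 and 4708). The groups overlapped, its second probe set went the other way (0.71 ± 0.96 and −0.46 ± 0.80), and without control 1a its direction turned (−0.29). MRPS24 ranged from 119.2 on failing 1b to 878.5 on failing 2a with both controls between them.

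Over both subunits 6 of 9 tested genes had a log2 fold change below 0, with a median of −0.36, or −0.51 relative to all genes, and on every failing array 2 lay under both controls and 0 above. Of all 1449 tested genes 586 had a log2 fold change below 0, and 11.8% and 19.5% lay wholly below and above control, so counts from 9 genes are given as a description. None passed the adjusted threshold, and 0 had an unadjusted p under 0.05. Since 14 of 23 ribosomal genes were too dim to be tested, these values describe the brighter ones.

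Translation itself was represented by TUFM, the mitochondrial elongation factor that carries charged tRNA to the ribosome. At its main probe set TUFM read 2502 and 3264 on the control arrays, 2938 and 2774 on failing 1a and 1b and 1060 on failing 2a. The first pair of failing arrays lay between the controls and failing 2a below them (log2 fold change −0.48 ± 0.52, and −0.0015 without failing 2a). On 2 further TUFM probe sets failing 2a was instead the highest array, at 1814 and 2788, and failing 1b the lowest, at 367.2 and −213.6. TFAM, which packs mitochondrial DNA and starts its transcription, was too dim to be tested. Its values of 113.3 and 74.7 in control, against 14.5, 31.6 and 63.1 on failing 1a, 1b and 2a, did not overlap, and all lay under the filter.

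Of 8 import genes 6 were tested, and their median log2 fold change was 0.11. The TOM subunits TOMM5, TOMM6 and TOMM7 are small proteins that assemble and stabilise the outer membrane pore. TOMM5 was at 1454 and 2177 on control 1a and 2a, as against 1167, 1114 and 1265 in the failing samples. All failing values were under both controls and close to each other, with the wider spread among the controls (−0.59 ± 0.33, 0.664-fold, adjusted p = 0.591, limma). Without control 2a the log2 fold change was −0.30.

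TOMM6 read 471.4 and 712.0 against 541.1, 262.0 and 465.1 (−0.52 ± 0.62). TOMM7 had values of 4923 and 8075 in control and 8053, 7283 and 5693 in failing myocardium. All failing values of TOMM7 fell between the controls (0.14 ± 0.29), and the direction turned after scaling to the 75th percentile (−0.065) and without control 1a (−0.22). Its second passing probe set gave −0.22 ± 0.39.

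On the inner membrane, TIMM50 receives proteins as they leave the TOM complex, and TIMM44 tethers the import motor to the channel. TIMM50 was at 4723 and 5280 in control, against 5783, 5659 and 5946 on failing 1a, 1b and 2a. The failing arrays were all above both controls by a narrow margin, 1.16-fold on average (0.21 ± 0.18, 95% interval −0.24 to 0.67, adjusted p = 0.749, limma), while a dimmer probe set, below 0 on failing 2a and floored there, gave −0.93 ± 1.67. Scaled to the 75th percentile, the main probe set was at 0.012, and without control 1a at 0.13. TIMM44 read 114.3 and 327.1 against 416.0, 418.4 and 796.2.

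All 3 failing values of TIMM44 were above both controls (1.42 ± 0.80, adjusted p = 0.594, limma), and the log2 fold change was 0.66 without control 1a and 2.18 without control 2a. Its 2 other probe sets, both under the filter, were lower on every failing array (80.9 and 84.7 against −215.3, −404.8 and −535.6 on HSPD15195_s_at). With values mostly below 0, those 2 probe sets give no direction. TIMM8B, a small chaperone of the intermembrane space, was at 3445 and 2758 in control, 2620 and 2447 on failing 1a and 1b and 5517 on failing 2a, with failing 2a on the other side of the controls.

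Of 12 carriers 6 were tested. Their log2 fold changes were all above 0 at the main probe set, from 0.06 (SLC25A11) to 2.08 (SLC25A28, −0.011 without control 1a), with a median of 0.45 (0.30 relative to all genes), and 2 of them lay above control on every failing array. None passed the threshold, 0 had an unadjusted p under 0.05, and 863 of all 1449 tested genes were also above 0. Throughout the tested genes, 19.5% exceeded both controls in each failing sample, so the 2 of 6 carriers are given as a description. SLC25A34, a carrier whose substrate is not settled, was at 2325 and 2360 on control 1a and 2a, as against 3004, 3326 and 3560 in the failing samples. The failing values all lay above the controls, which were close to each other (0.49 ± 0.22, 1.40-fold, 95% interval −0.060 to 1.04, adjusted p = 0.520, limma).

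The 2 other SLC25A34 probe sets were below the filter. HSPD3527_r_at was below 0 on every array (−6463 and −6512 against −4879, −6072 and −1541), and HSPD3527_i_at was below 0 on both controls. Their failing values were all above control, but with values below 0 these 2 probe sets, like those of TIMM44, give no direction. SLC25A51, the mitochondrial carrier of NAD+, read 196.5 and 174.6 against 324.7, 228.7 and 600.2. The groups did not overlap (0.94 ± 0.81), while on its other probe set failing 1b was below both controls (0.23 ± 1.08), and without failing 2a the log2 fold change of the main probe set was 0.56. SLC25A28, mitoferrin 2, which imports iron, read 55.2 on control 1a and 1001 on control 2a, against 780.5, 883.4 and 1419.

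The SLC25A28 difference rested on control 1a, since the log2 fold change was 2.08 ± 1.26 over all arrays, −0.011 without control 1a and 4.17 without control 2a. SLC25A3, which carries phosphate for ATP synthesis, was at 4804 and 2849 on the control arrays, 6622 and 6176 on failing 1a and 1b and 2924 on failing 2a (0.41 ± 0.45). Failing 1a and 1b lay above both controls and failing 2a between them, and the log2 fold change was 0.79 without failing 2a and 0.036 at its lowest when other arrays were left out. SLC25A11, the oxoglutarate and malate carrier, went from 1265 ± 263 to 1319 ± 235 (0.06 ± 0.35), and SLC25A46, an outer membrane protein of mitochondrial dynamics, from 222.3 ± 67.8 to 287.8 ± 80.5 (0.37 ± 0.80).

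The log2 fold change was above 0 for VDAC3 and below 0 for VDAC1 and VDAC2, the porins of the outer membrane, and none passed the threshold. VDAC3 read 4630 and 6576 in control, against 7012, 7698 and 8962 on failing 1a, 1b and 2a. All failing values were above both controls, 1.42-fold on average (0.51 ± 0.24, 95% interval −0.084 to 1.10, adjusted p = 0.532, limma), and 0.25 without control 1a. A second VDAC3 probe set, at 367.7 and 123.1 against 504.7, 485.1 and 597.8, also did not overlap (1.31 ± 0.77). VDAC2 was at 5250 and 4321 against 5274, 4061 and 2761, with overlapping groups (−0.29 ± 0.33).

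VDAC1, the main porin of most cells, had the widest range of the porins, from 613.2 on failing 1a and 5356 on failing 1b to 17172 on failing 2a, against 15064 and 12261 on the control arrays. Failing 1a and 1b lay below and failing 2a above both controls (−1.83 ± 1.35), and the log2 fold change was −0.50 without failing 1a (unadjusted p = 0.427, limma). Without failing 2a it was −2.91 ± 1.08 with an unadjusted p of 0.0501 (adjusted p = 0.307, limma, with 0.307 the lowest and 0.962 the highest over its alternatives). The ratio between failing 2a and failing 1a thus exceeded that between any control and any failing array. Its other probe set, under the filter, read 255.3 and 13.4 against 491.4, 47.2 and 366.2.

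PHB2, which forms ring complexes in the inner membrane, was at 2315 and 2164 on control 1a and 2a, as against 1834, 2340 and 2787 in the failing samples. The groups overlapped (0.03 ± 0.28, 95% interval −0.68 to 0.74), and its sign turned under both other scalings (−0.12 and −0.17). A dim second probe set, below the filter, read 35.2 and 59.6 in control and 185.8, 117.6 and 323.5 in failing myocardium, above control on all 3 failing arrays.

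**Figure D3:**
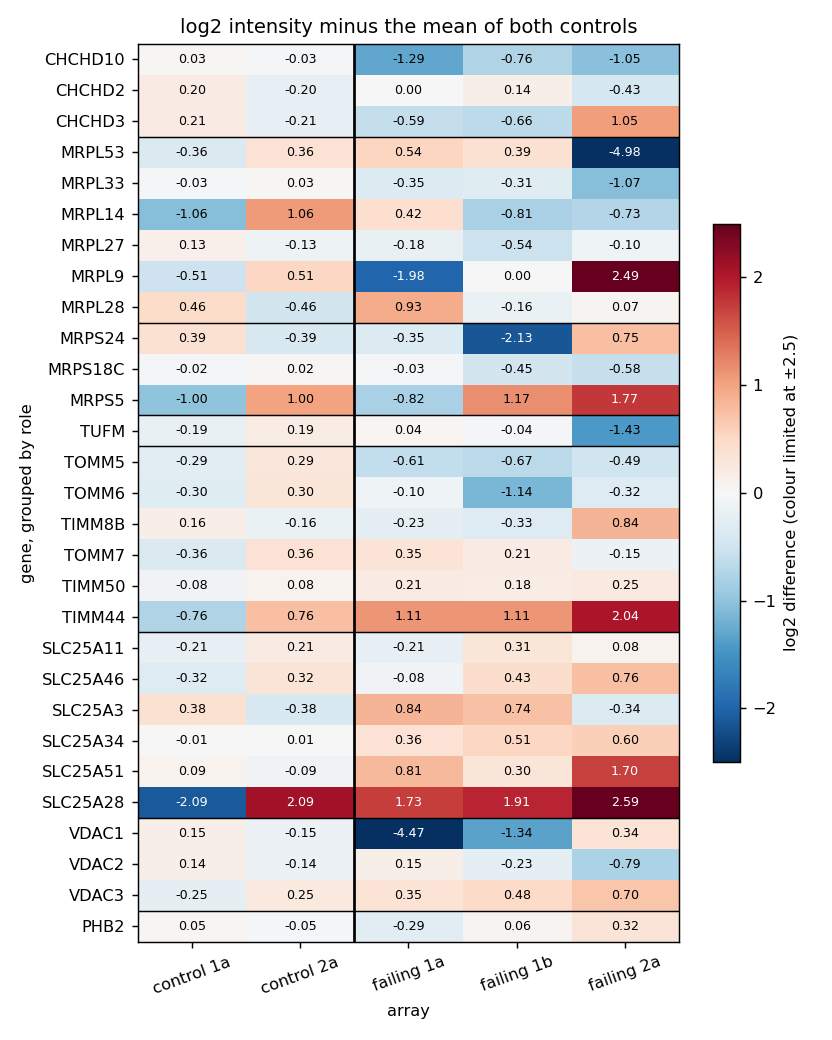
Log2 intensity of each tested member on each array minus the mean of both control arrays, in rows grouped by role and with colour limited at 2.5 in either direction. CHCHD10 is the row with all failing arrays more than 0.7 below control, and failing 2a differs from failing 1a and 1b in sign in rows such as TIMM8B (0.84), CHCHD3 (1.05), VDAC1 (0.34) and MRPL53 (−4.98, floored).

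Failing 2a stood apart from failing 1a and 1b among the members, as it did over all genes. It was the highest or the lowest of the 5 arrays in 20 of 29 members (69.0%), against 66.8% of all tested genes. In 9 members (31.0%) failing 1a and 1b lay on the same side of the control mean and failing 2a on the other, against 26.4% of all genes, 4 with failing 2a below and 5 with it above. The median absolute log2 difference over members was 0.35 between failing 1a and 1b, 0.43 between the control arrays, and 0.86 and 0.57 between failing 2a and failing 1a and 1b. Failing 1a and 1b thus differed less than the controls did, and failing 2a differed more. Control 1a was the lowest array in 10 members (34.5%), against 23.5% of all genes.

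Different probe sets of a gene often disagreed. Of the 12 member genes with several probe sets past the filter, 5 (41.7%) had the same direction on all of them, namely CHCHD10, CHCHD2, SLC25A51, VDAC2 and VDAC3. Among all genes with several such probe sets it was 48.5% (173 of 357). The widest gaps were in TUFM (−2.33 to 0.03) and SLC25A28 (−0.11 to 2.08), and in both the lowest value comes from a probe set with 1 floored array.

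**Figure D4:**
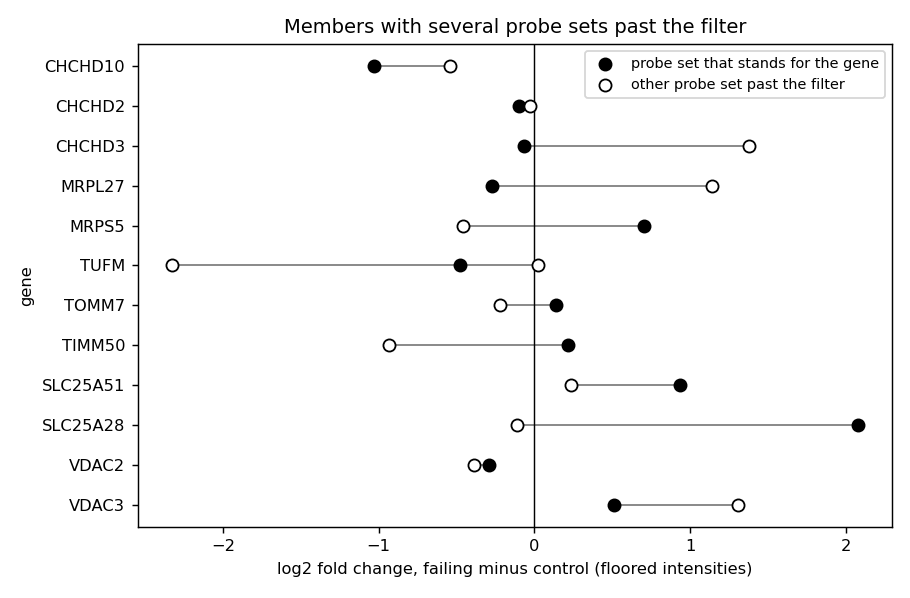
Log2 fold change, failing minus control, of every probe set past the filter for the 12 members with more than 1, with the probe set that stands for the gene filled and the others open. In 5 genes all points lie on the same side of 0, and in TUFM they span −2.33 to 0.03.

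The 23 members that were too dim to be tested were 7 of the large subunit (MRPL12, MRPL19, MRPL37, MRPL40, MRPL46, MRPL52 and MRPL58), 7 of the small subunit (MRPS7, MRPS12, MRPS15, MRPS21, MRPS27, MRPS31 and MRPS34), 6 carriers (SLC25A1, SLC25A12, SLC25A23, SLC25A26, SLC25A42 and SLC25A44), TFAM, TIMM13 and TIMMDC1. TIMMDC1 shares the prefix but serves in the assembly of complex I. In MRPL58, MRPS12, MRPS34, SLC25A26 and TIMMDC1 every value was below 0. The probe sets of the 23 genes ran from −4480 (MRPL12) to 1593 (MRPL52), and for TFAM and SLC25A12 alone a probe set was above 0 on all 5 arrays. Values below 0 say nothing on whether these genes were expressed.

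Without the filter MRPL40, of the large subunit, was the 1 member to pass (adjusted p = 0.00115 by limma over 2416 genes). MRPL40 was named after its values were seen. At that probe set it read 64.9 and 62.9 in control and −67.0, −23.6 and −97.9 in failing myocardium, where all values were raised to the floor of 20. The 3 failing values were thus identical after the floor, which leaves no spread among them, and the other MRPL40 probe set was below 0 on every array. No fold is given for it.

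Other mitochondrial genes were set beside the members. Of 27 chaperone and protease genes 8 were tested, with a median log2 fold change of 0.43. At an unadjusted p under 0.05, 1 was higher and 0 lower, beside 6.90% and 3.59% of all tested genes. HSPD1, the folding chaperonin of the matrix, went from 1459 ± 643 to 2810 ± 371 (1.01 ± 0.36) and CLPP, a matrix protease, from 2518 ± 406 to 3686 ± 540 (0.55 ± 0.25). Both lay above control on every failing array, with adjusted p of 0.442 and 0.529 (limma), and were named for having the smallest p. No other of the 8 lay above, which makes 25% against 19.5% of all tested genes. SAMM50 (−0.34), HSPE1 (−0.24) and IMMT (−0.03) had a log2 fold change below 0. Of the other lists, mitochondrial translation outside the ribosome had 2 tested genes of 32, mitochondrial DNA and transcription 2 of 16, regulators of mitochondrial gene expression 3 of 21 and fusion and fission 4 of 10.

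None of those 11 genes had an unadjusted p under 0.05. They include SSBP1, which binds single-stranded mitochondrial DNA (1.01 ± 0.82), LRPPRC, which stabilises mitochondrial mRNA (0.62 ± 0.74), RXRA, a nuclear receptor partner (0.50 ± 0.34), and MFN2, a fusion protein (1.33 ± 0.94). FIS1, of the fusion and fission list, was at −0.34 ± 0.36 and was the only one of the 11 below 0. Among 55 tested subunits of the respiratory chain and ATP synthase, 12 were lower and 3 higher at an unadjusted p under 0.05, on every failing array 21 (38.2%) lay under both controls and 7 above, and the median was −0.32. The members stood at 1, 0, 4 (13.8%), 5 and 0.03 in the same counts. All tested genes stood at 3.59%, 6.90%, 11.8%, 19.5% and a median of 0.15. The lists were not matched for brightness, and the difference between them was not tested.

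Summed markers of other cell types are given beside these values, with values below 0 left out of each sum. Fibroblast markers (8 of 9 on the array) summed to 2991 to 4724 in control and 5651 to 7927 in failing myocardium, but of 7 tested markers 2, COL1A2 and COL3A1, lay above control on every failing array. Failing 1b was below both controls for POSTN, PDGFRA and LUM, COL1A1 overlapped, and THY1 was below 0 on failing 1a and 1b. With THY1 counted at its −1109 on failing 1a, the fibroblast sum there would lie below that of control 1a, so the groups would overlap. Endothelial markers (6 of 8) summed to 4579 to 5001 and 5230 to 8659, with 3 of 5 tested above control on every failing array and PECAM1 below 0 on control 1a and failing 2a. ENG, the brightest of them, was below both controls on failing 1a and 1b and above them on failing 2a, and TEK overlapped. The ranges overlapped for smooth muscle (4 of 6, 4685 to 4871 and 4327 to 6206, with CNN1 below 0 throughout and ACTA2 on control 1a and failing 1b and 2a), red blood cell (2 of 6, 3301 to 5270 and 4424 to 5549), adipocyte (4 of 6, 10578 to 11152 and 9588 to 13007, with FABP4 below 0 on both controls and failing 1a and LPL on control 2a and failing 1b) and immune markers (4 of 8, 77.1 to 172.8 and 12.9 to 1930, with CD163 and ITGAM below 0 throughout and PTPRC on control 1a and failing 1b). Of 3 tested adipocyte markers 2, CFD and PLIN1, lay below both controls on every failing array. Of 2 tested smooth muscle markers TAGLN lay below and LMOD1 above, and of 2 tested red blood cell markers HBB lay above. The part of cell composition in the members' values was not tested.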

How the data were processed

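The authors deposited 1 table with a linear intensity per probe set and array, 4653 probe sets on 5 arrays. Scanner software, background correction, normalization and labelling are not given in the sources used here, and other value columns numbered 0. Each array has a mean of 800 without its lowest and highest 2% of probe sets, so no scaling was added. The arrays still differed in other respects. The median intensity was 267.5 on failing 2a and 190.0 to 201.8 on the others. The highest intensity outside the array controls was 89736 and 88049 on control 1a and 2a. It was 56032, 81232 and 72821 on failing 1a, 1b and 2a. The 52 array controls were left out of the tests. Of the other 4601 probe sets, 3724 had 1 gene symbol in the platform annotation, 72 several and 805 none. Coordinates are left out, as the table names no genome build.

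Values under 20 were set to 20 and log2 was taken, which makes the fold change of a dim gene a function of that floor. Probe sets with a mean log2 intensity at or above the median were kept, and the brightest one stood for its gene. Failing was compared with control in R 4.3.3 with limma 3.58.1 (eBayes with an intensity trend, two-sided), with Benjamini-Hochberg adjustment over 1449 genes and a threshold of 0.05. The code was tested on simulated data, with values well above the floor and without the filter. That test does not cover floored values. The 15 alternatives changed scale, floor, filter, probe set, spread estimate, replicate number or left out an array. The number of arrays limits precision.

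The members and lists were chosen with earlier results of these data known. Values on every array are given for the 12 tested members of smallest p and the 2 brightest of each role, and other members are described by the same tables. Of each other list, up to 2 genes of smallest p are named.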

Additional observations from a re-analysis of the deposited data

How the results depend on the processing

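Of 18 members named by rule, 12 kept their direction in all alternatives that gave a value, and none passed the adjusted threshold in any of them. PHB2 turned to −0.12 under quantile normalization and to −0.17 when arrays were scaled to their 75th percentile, where TOMM7 turned to −0.065. With each array left out in turn, log2 fold changes ran from −0.011 to 4.17 for SLC25A28, −0.30 to 0.11 for CHCHD2, −0.22 to 0.49 for TOMM7, −0.29 to 1.70 for MRPS5, −0.18 to 0.74 for MRPL28 and −0.11 to 0.19 for PHB2. The 1 gene called among all genes became 0 after quantile normalization, with the upper quartile filter and with failing 1a and 1b averaged, 2 after 75th percentile scaling and with every probe set by itself, 3 without the intensity trend and 5 without a filter, and 0 to 13 with an array left out (13 without failing 2a). The member called without a filter was 1 (MRPL40), and 0 were called with any array left out. Members lower at an unadjusted p were 2 after 75th percentile scaling, beside 72 of 1447 genes, and 2 without a filter, beside 84 of 2416. By probe set the count was also 2, beside 77 of 2301, but both are probe sets of CHCHD10. Members higher were 1 without a filter, beside 128 of 2416 genes. With a failing array left out they were 0 to 1, beside 52 to 131 of all genes. Members below control on every failing array numbered 4 to 8 (13.8% to 26.7%) with an array left out, beside 15.2% to 20.7% of all genes. Members above numbered 5 to 11 (17.2% to 37.9%), beside 25.4% to 33.4%, and 3 (16.7%) with the upper quartile filter, beside 20.8%. The members' median was −0.29 after quantile normalization, −0.17 after 75th percentile scaling, −0.045 by probe set, −0.017 with a floor of 100 or the group-mean filter, and −0.15 to 0.10 with an array left out. The cause of these shifts was not tested.

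With the replicate number as a block (1 or 2 in the titles), members higher at an unadjusted p numbered 2, SLC25A34 (0.51) and VDAC3 (0.57), of 29, beside 152 of all 1449 genes, and CHCHD10 stayed lower (−1.04, adjusted p = 0.241, limma, in a range of 0.142 to 0.648). Deviations from the group mean correlated across genes by −0.025, 0.041 and 0.012 between same-numbered arrays, so the numbers are not known to pair the samples. Genes near or below an intensity of 0 are limited by signal over background.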
